A study of Homo sapiens with 12 samples.

Results

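Primed pluripotency markers and transcripts tied to the endogenous retrovirus HERV-H were followed from human embryonic stem cells to neural progenitor cells. The genes were ESRG, HHLA1, L1TD1, DPPA2, DPPA4, UTF1, ZSCAN10, ZFP42, TERT and FGF4, taken by symbol from a count table of 59050 genes, and all 10 were found there. The stem cells (ESC) were wild-type HUES8, an established human embryonic stem cell line kept in mTeSR1 medium on Matrigel. The neural progenitors (NPC) were wild-type cells of the same line after 7 days of neural induction. In that induction 2.5 uM SB431542, which blocks Nodal and activin receptors, and 0.05 uM LDN193189, which blocks BMP receptors, were added, and SB431542 was left out for the last 2 days. Each state was measured in 3 libraries of rRNA-depleted total RNA and 3 libraries of ribosome-bound RNA, 12 libraries in 4 groups. The labels do not say whether replicates are separate cultures, so the p-values measure the spread between these libraries, which may be technical. A single line stands for each state, and the way ribosomes were isolated was not stated in the labels.

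Human embryonic stem cells in standard medium resemble the primed, post-implantation epiblast. In that state retroviral HERV-H elements are active, and their long terminal repeats act as promoters of noncoding RNAs such as ESRG or as alternative promoters of neighbouring genes such as HHLA1. DPPA2, DPPA4, UTF1, ZSCAN10 and ZFP42 (REX1) encode nuclear proteins of pluripotent cells, L1TD1 encodes an RNA-binding protein derived from a LINE-1 retrotransposon, TERT is the catalytic subunit of telomerase, and FGF4 is a secreted growth factor. Most of these genes are used as markers of undifferentiated cells.

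RNA libraries held 19529738 to 35117370 counts and ribosome-bound libraries 2422756 to 4451196, so that 3 counts, taken here as the detection floor, correspond to 0.0854 to 0.154 and 0.674 to 1.24 CPM. CPM is the count divided by the library's total and multiplied by 1000000. Values were not divided by transcript length, so levels are compared within a gene and not between genes. The ESC and NPC labels matched their markers: NANOG changed by -8.45 ± 0.13 on the log2 scale in RNA and POU5F1 by -5.45 ± 0.30, while SOX2 (0.10 ± 0.11, adjusted p = 0.476) did not pass the test. All 8 neural progenitor markers rose, as did 26.4% of all genes tested, PAX6 from 0.690 to 43.3 CPM. LHX2 and HES5, with 6 and 16 RNA counts in ESC, passed the filter on low counts only through NPC. Among naive-state markers, 3 of 13 had 0 counts in all ESC RNA libraries (KLF17, ARGFX and TRIM60). In ESC RNA 2 of the 13 exceeded 10 CPM, TFCP2L1 at 26.2 and KLF4 at 12.8. Of 12 primed-state markers 11 exceeded 10 CPM in ESC RNA. The same 11 exceeded it in NPC RNA, NLGN4X being the lowest of them at 34.15, so this count does not tell the states apart. Without division by transcript length, the 2 lists are described here and not compared. Of the ESC libraries, RNA replicate 3 and ribosome-bound replicate 2 stood apart from their replicates. The correlation of log2 CPM across genes was 0.974 and 0.979 for the former, against 0.996 between the other RNA replicates, and 0.956 and 0.963 for the latter, against 0.980. Where a gene's value in one of them was well apart, its change is also given without that library.

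All 10 genes had less RNA in NPC than in ESC. edgeR's quasi-likelihood test called every one of them lower (Benjamini-Hochberg adjusted p under 0.05 over 18631 genes), where 26.2% of all genes tested were lower and 26.4% higher. In each of the 10 all 3 ESC RNA libraries lay above all 3 NPC libraries, as they did in 27.5% of all genes tested. The median log2 fold change was -3.46 over the 10 genes and 0.03 over all genes. In ribosome-bound RNA 9 of 10 were lower, all but TERT, against backgrounds of 30.3% lower and 31.6% higher among 12250 genes, and the median was -3.95 against -0.01. In those 9 the ESC libraries lay above all NPC libraries, as in 32.8% of genes tested. That median is the same with HHLA1, which had 0 ribosome-bound counts in NPC, set at its lower bound. All 10 genes passed the filters on low counts, but some did so only through their ESC level. Among these were HHLA1 and FGF4 in RNA (18 and 31 counts in NPC) and HHLA1, FGF4 and DPPA2 in ribosome-bound RNA (0, 2 and 6). For such genes hardly any call but lower was possible, so the counts called lower are partly set by the filter. In bulk samples, fewer cells that express a gene and less RNA per cell cannot be told apart, and this holds for every fall given here.

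**Figure D1:**
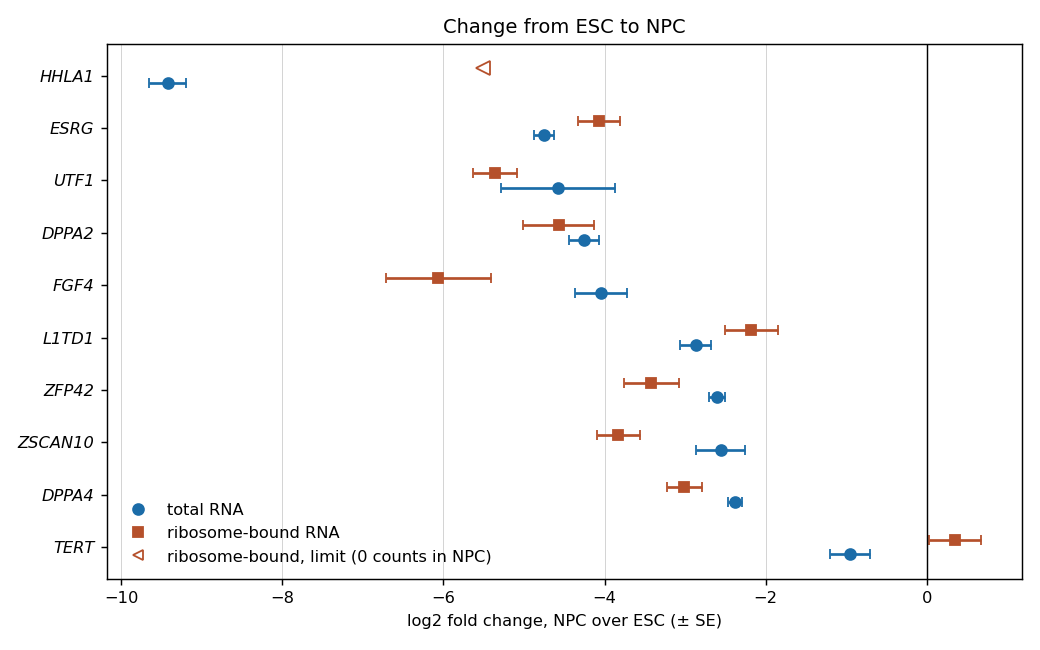
Log2 fold change from ESC to NPC (± SE, edgeR, 3 libraries per state and assay) for each gene in total RNA (circles) and in ribosome-bound RNA (squares); the open triangle is the limit for HHLA1, which had 0 ribosome-bound counts in NPC. RNA changes run from -9.43 for HHLA1 to -0.95 for TERT, and TERT's ribosome-bound value of 0.35 is the only one above 0.

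**Figure D2:**
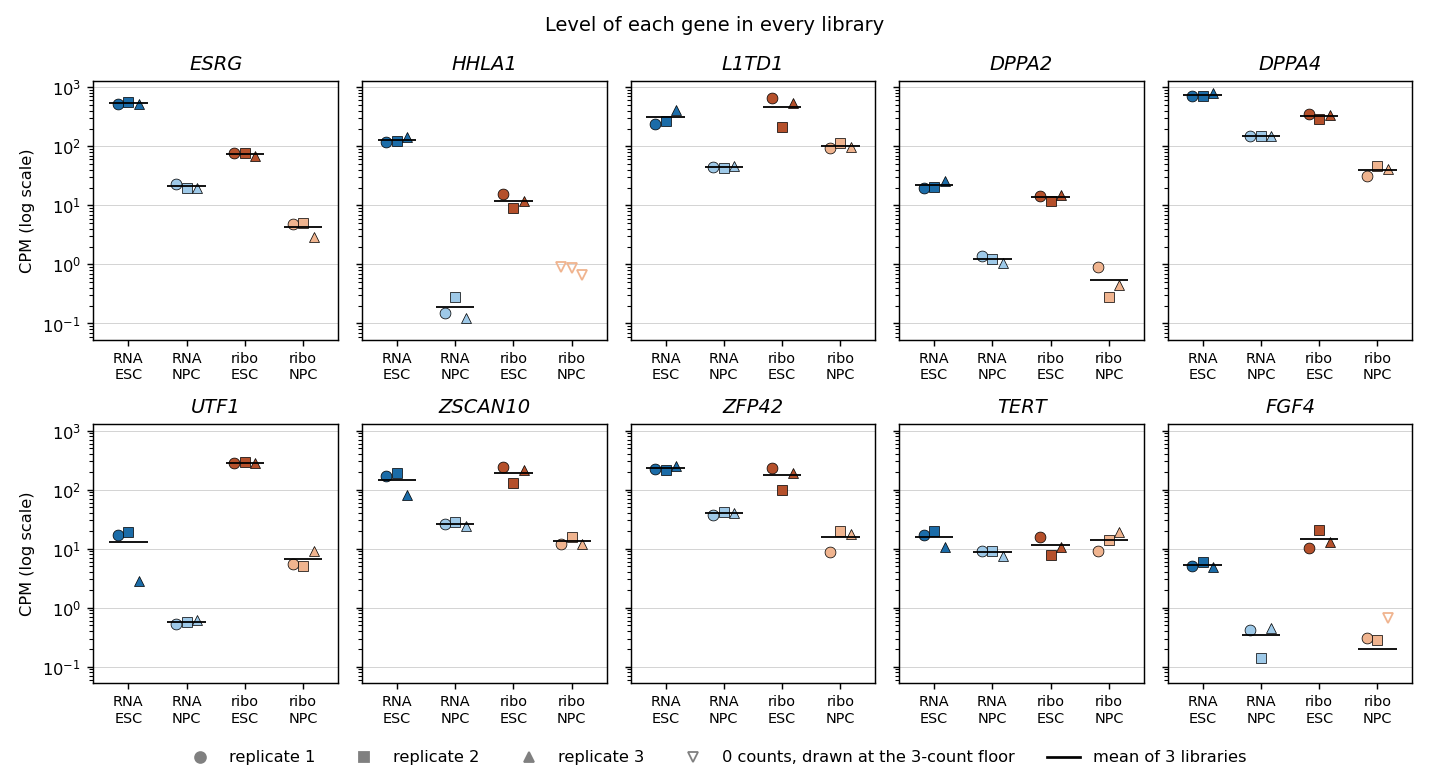
CPM (log axis) of each gene in every library by assay and cell state; bars are means of 3 libraries and open triangles mark 0 counts, drawn at the library's 3-count floor. ESC points lie above NPC points in RNA for all 10 genes (27.5% of all genes tested) and in ribosome-bound RNA for 9 (32.8%); RNA ESC replicate 3 is far below its replicates for UTF1.

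RefSeq promoter windows, from 250 bases before to 50 after the gene's start in GRCh38.p14, were matched for 7 of the 10 genes. For DPPA4 the table's start lies 2090 bases inside the gene's 5′ end, so that its window is at an inner start; the other 6 begin at the gene's 5′ end. These windows were searched on both strands for 5 motifs because the genes fall together and because OCT4, SOX2 and MYC proteins are known regulators of such genes. The SOX motif AACAAAG, which reads CTTTGTT on the other strand, was in 3 of 7 windows, those of L1TD1, DPPA2 and ZFP42, and in 5.20% of all 35116 promoters of that length. In all 3 it was read as CTTTGTT, beginning 28, 4 and 8 bases after the start. The E-box CACGTG was in the TERT window only, at position -163 relative to the start, and in 7.26% of promoters. The octamer ATTTGCAT (1.77% of promoters), TATAAA (11.5%) and the YY1 motif AAGATGGC (2.89%) were in none of the 7, which says only that these letters are not in these windows. No window held more than 1 of these motifs, so none overlapped. Base composition varied: the windows were 45.3% G and C for DPPA4, 51.3% for DPPA2, 55.3% for ZSCAN10, 58.0% for L1TD1, 69.3% for ZFP42, 71.7% for UTF1 and 77.3% for TERT, beside a median of 58.7% over all promoters. The 3 windows that hold the SOX motif are shown 5′ to 3′ on the gene's strand, with the motif in capitals: L1TD1 at chr1:62194599-62194898 (plus strand), DPPA2 at chr3:109316468-109316767 (minus strand) and ZFP42 at chr4:187995521-187995820 (plus strand).
L1TD1: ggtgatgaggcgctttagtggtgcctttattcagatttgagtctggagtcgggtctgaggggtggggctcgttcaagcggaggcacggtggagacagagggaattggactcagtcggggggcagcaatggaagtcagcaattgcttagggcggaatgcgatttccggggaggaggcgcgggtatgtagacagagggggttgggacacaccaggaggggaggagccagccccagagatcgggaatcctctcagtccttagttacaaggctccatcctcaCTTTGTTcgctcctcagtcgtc
DPPA2: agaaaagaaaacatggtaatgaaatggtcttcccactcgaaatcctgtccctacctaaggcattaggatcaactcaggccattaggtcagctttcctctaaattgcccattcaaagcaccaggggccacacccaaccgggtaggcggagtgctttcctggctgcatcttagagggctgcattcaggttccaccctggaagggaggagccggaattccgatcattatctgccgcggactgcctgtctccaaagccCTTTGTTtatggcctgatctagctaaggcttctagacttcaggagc
ZFP42: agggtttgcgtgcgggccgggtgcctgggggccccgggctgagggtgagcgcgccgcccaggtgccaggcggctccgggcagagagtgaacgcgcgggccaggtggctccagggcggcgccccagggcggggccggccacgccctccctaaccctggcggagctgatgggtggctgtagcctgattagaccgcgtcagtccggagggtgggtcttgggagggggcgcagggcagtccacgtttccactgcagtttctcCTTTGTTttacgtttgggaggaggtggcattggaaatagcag

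L1TD1, whose promoter is the first of those shown, lies at chr1:62194849-62212328. Its RNA stood at 243, 273 and 416 CPM in ESC and at 44.5, 42.5 and 46.1 in NPC. Every ESC library was above every NPC library, the divergent ESC replicate 3 being the highest. The log2 fold change was -2.87 ± 0.19 (adjusted p = 1.11e-05), and -2.63 ± 0.07 without that library. In ribosome-bound RNA the values were 658, 215 and 543 CPM in ESC and 93.8, 112 and 95.7 in NPC. ESC replicate 2 was the low one, yet still above all NPC libraries. The change was -2.18 ± 0.33 (adjusted p = 1.43e-04), and -2.52 ± 0.14 without that library. L1TD1 thus kept 14.3% of its ESC level in RNA and 21.3% in ribosome-bound RNA.

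DPPA2 and DPPA4 are paralogues whose proteins share a DNA-binding SAP domain and bind each other. They lie 9627 bases apart on the minus strand, DPPA2 at chr3:109293788-109316517 and DPPA4 at chr3:109326144-109339636. DPPA2 RNA was at 20.1, 20.8 and 25.9 CPM in ESC and at 1.38, 1.22 and 1.04 in NPC, a log2 change of -4.26 ± 0.18 (adjusted p = 1.41e-06). DPPA4 RNA was at 703, 719 and 809 CPM in ESC and at 149.9, 149.5 and 150.4 in NPC, a change of -2.38 ± 0.09 (adjusted p = 6.54e-07). Both pairs of groups were far apart, and the NPC libraries of DPPA4 differed by little (149.9 ± 0.415 SD). DPPA4 therefore kept 20.2% of its ESC RNA and DPPA2 kept 5.47%. In ribosome-bound RNA, DPPA2 went from 14.3, 11.97 and 15.3 CPM to 0.916, 0.285 and 0.449. These NPC values rest on 6 counts in all against 128 in ESC, a ratio of 26.4 with an exact 95% counting interval of 11.8 to 73.1. DPPA4 went from 358, 291 and 344 CPM to 31.5, 47.3 and 41.6, a change of -3.01 ± 0.21 (adjusted p = 7.98e-07). Of the other DPPA genes, DPPA3, a maternal-effect gene and naive-state marker, had 127 RNA counts in ESC and 0 in NPC, at least 60.3-fold lower over the group. DPPA5 had 25 RNA counts in ESC and 1 in NPC and was below the filter.

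UTF1 is a small chromatin-bound protein of pluripotent cells, and its gene, at chr10:133230217-133231558, spans 1342 bases. It showed the widest gap between the assays. UTF1 RNA was at 17.1, 19.1 and 2.82 CPM in ESC and at 0.537, 0.570 and 0.612 in NPC. ESC replicate 3 was far below its replicates but above all NPC libraries. The RNA change was -4.58 ± 0.71 (adjusted p = 0.00103), and -5.05 ± 0.18 without that library. In ribosome-bound RNA the ESC libraries read 279, 288 and 282 CPM and the NPC libraries 5.50, 5.13 and 9.21. Here the replicates of a state lay close together, and the change was -5.36 ± 0.27 (adjusted p = 1.80e-07). UTF1 kept 4.41% of its ESC level in RNA and 2.34% in ribosome-bound RNA.

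ZSCAN10 is a zinc finger factor of stem cells, at chr16:3088890-3099294. Its RNA was at 168, 190 and 82.3 CPM in ESC and at 26.4, 27.8 and 24.5 in NPC. The groups did not overlap, with ESC replicate 3 again the low one, and the change was -2.56 ± 0.30 (adjusted p = 2.34e-04), or -2.86 ± 0.07 without it. Ribosome-bound ZSCAN10 was at 238, 128 and 215 CPM in ESC and at 11.9, 16.0 and 11.9 in NPC, a change of -3.83 ± 0.26 (adjusted p = 6.38e-07). ESC replicate 2 was the low library in this assay, and the change without it was -4.04 ± 0.16. ZSCAN10 kept 17.9% of its ESC level in RNA and 6.84% in ribosome-bound RNA.

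ZFP42, known as REX1, arose from a retroposed copy of the zinc finger factor YY1 and lies at chr4:187995771-188005246. Its RNA was at 227, 215 and 250 CPM in ESC and at 36.9, 42.2 and 39.9 in NPC, a change of -2.61 ± 0.10 (adjusted p = 1.01e-06). Ribosome-bound ZFP42 was at 233, 97.4 and 191 CPM in ESC and at 8.86, 20.2 and 17.97 in NPC. ESC replicate 2 was less than the other ESC libraries and above all of NPC. The change was -3.42 ± 0.34 (adjusted p = 7.52e-06), and -3.68 ± 0.18 without that library. YY1 itself, present in most cell types, had RNA at 169 ± 32.3 CPM in ESC and 143 ± 6.16 in NPC (SD, n = 3 each; log2 change -0.31 ± 0.13, adjusted p = 0.0724) and rose in ribosome-bound RNA (0.48 ± 0.18, adjusted p = 0.0373).

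ESRG and HHLA1 are the HERV-H transcripts among the 10 genes. ESRG, a HERV-H-driven noncoding RNA at chr3:54632124-54639857, was at 532, 566 and 515 CPM in ESC RNA and at 23.1, 19.7 and 20.04 in NPC. It was high and even across the ESC libraries, replicate 3 included, and changed by -4.75 ± 0.12 (adjusted p = 1.53e-07). ESRG lies within the span of CACNA2D3, a calcium channel subunit gene, and the use of strand in counting is not given, so reads of the pair may not be separated. CACNA2D3 fell from 15.6 to 4.42 CPM in RNA (-1.88 ± 0.15). In ribosome-bound RNA, ESRG was at 75.9, 77.2 and 67.4 CPM in ESC and at 4.89, 5.13 and 2.92 in NPC, a change of -4.07 ± 0.26 (adjusted p = 4.64e-07).

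HHLA1, at chr8:132061480-132111157, is named for the HERV-H long terminal repeat that its transcripts associate with. Its RNA went from 119, 125 and 143 CPM in ESC to 0.153, 0.285 and 0.122 in NPC. The NPC values rest on 18 counts in all, close to the floor, against 8441 in ESC, a ratio of 668 with an exact counting interval of 422.5 to 1128. The fitted change was -9.43 ± 0.23 (adjusted p = 1.53e-07), and 5 of 18631 genes fell further. Ribosome-bound HHLA1 was at 15.3, 9.08 and 11.7 CPM in ESC and had 0 counts in all NPC libraries. With 111 counts against 0 it was at least 45.7-fold lower over the group.

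The fall extended to the other HERV-H associated transcripts of a list of 9 that holds ESRG and HHLA1. All 9 fell in RNA, where 26.2% of all genes tested did, with a median log2 change of -5.64 against 0.03 over all genes. Several passed the filter only through ESC, such as LINC-ROR and ABHD12B, at means of 0.0223 and 0.241 CPM in NPC RNA. For these hardly any call but lower was possible. Among the noncoding RNAs, LINC01108 went from 87.7 ± 4.503 CPM to 0.249 ± 0.0918 (SD, n = 3 each), a change of -8.47 ± 0.21. LINC-ROR, which is known for a role in reprogramming, went from 588 counts to 2, a ratio of 419 with an interval of 115.5 to 3467. LINC00678 fell by 5.64 ± 0.14 on the log2 scale and LINC00545 by 1.55 ± 0.26, the smallest change of the list. ABHD12B and SCGB3A2, both protein-coding, changed by -6.51 ± 0.28 and -3.57 ± 0.16. In ribosome-bound RNA 5 of the 9 passed the filter and all 5 fell, where 30.3% of all genes tested did. These 5 passed through their ESC level and had NPC means of 4.31 CPM or less, with 0 for HHLA1. Their direction was thus largely set by the filter. HHLA2 was at or near 0 in every library, and HHLA3 rose in RNA (1.196 ± 0.19, adjusted p = 0.00121), so the shared name did not go with a shared direction. Reads from repeats can match several places, and their treatment in counting was not stated.

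**Figure D3:**
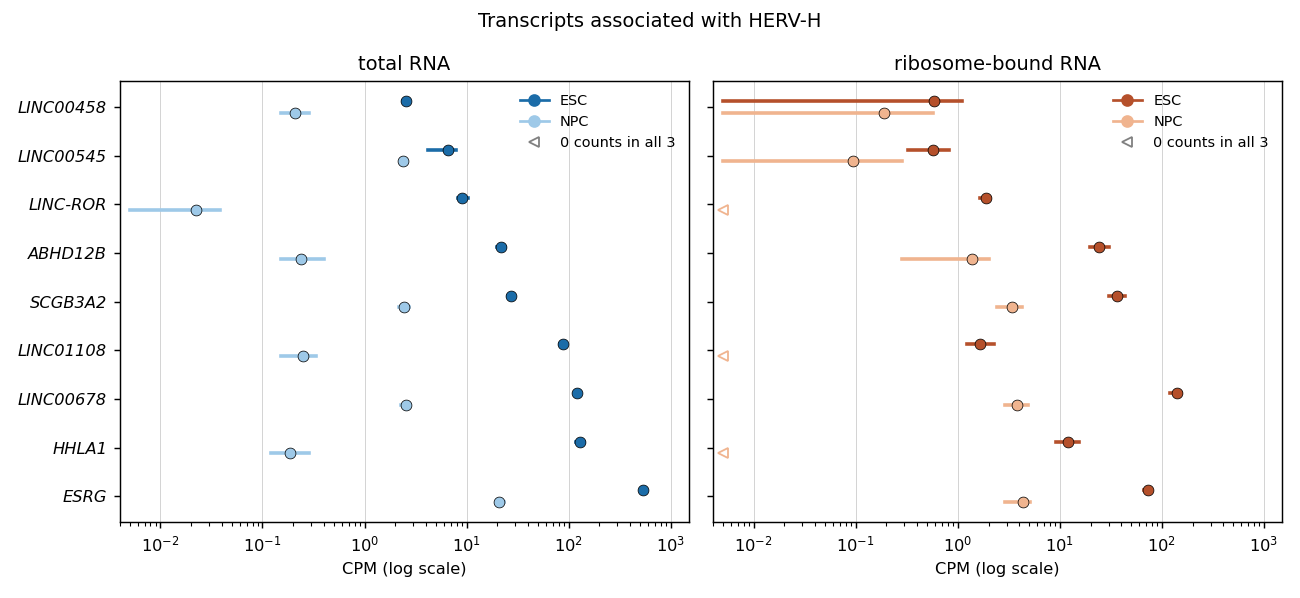
CPM (log axis) of 9 transcripts associated with HERV-H in total RNA (left) and ribosome-bound RNA (right), ESC in dark and NPC in light colours; points are means and lines span the lowest to the highest of 3 libraries, with values of 0 drawn at the left edge. In RNA each ESC mean lies to the right of its NPC mean, and in ribosome-bound RNA of ESC LINC00678 stands at 139 CPM while LINC01108 stands at 1.64.

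TERT, at chr5:1253167-1295068, changed least. Its span overlaps 2 other annotated genes, LOC107987433 and LOC124905596, whose reads may not be separated from its own. Its RNA was at 17.3, 19.8 and 10.5 CPM in ESC and at 9.28, 9.14 and 7.53 in NPC. The groups did not overlap, but ESC replicate 3 came close to the NPC libraries. The change was -0.95 ± 0.25 (adjusted p = 0.0131). This call was lost without NPC replicate 3 (-0.85, adjusted p = 0.0563), and the value without ESC replicate 3 was -1.19 ± 0.11. Ribosome-bound TERT was at 15.6, 7.84 and 10.8 CPM in ESC and at 9.16, 14.2 and 19.1 in NPC. These groups overlapped, and the change of 0.35 ± 0.32 (adjusted p = 0.361) did not pass the test. Without ESC replicate 2, the low library, it was 0.19 ± 0.29 (adjusted p = 0.573).

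In a list of 14 telomerase and shelterin genes that includes TERT, 12 were tested in RNA, of which 4 fell and 1 rose, beside 26.2% and 26.4% of all genes. TERF1, the shelterin protein that binds double-stranded telomeric repeats, fell from 237 ± 51.3 to 29.5 ± 1.76 CPM (-3.07 ± 0.15) and by 2.11 ± 0.21 in ribosome-bound RNA. DKC1, the pseudouridine synthase of the telomerase particle, fell by 1.09 ± 0.12. TERF2IP (RAP1) rose by 0.85 ± 0.12 in RNA. In ribosome-bound RNA 6 of 11 fell and 1 rose, beside 30.3% and 31.6% of all genes. ACD (TPP1), which recruits telomerase, changed by -1.64 ± 0.20 there but by -0.13 ± 0.27 in RNA. The noncoding telomerase RNA, TERC, was near 0 in all 12 libraries, so nothing can be read about it.

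FGF4, at chr11:69771022-69775341, is a ligand of FGF receptors and a target of OCT4 and SOX2. Its RNA was at 5.02, 5.92 and 4.97 CPM in ESC and at 0.422, 0.142 and 0.459 in NPC. The groups were far apart, and the change was -4.05 ± 0.32 (adjusted p = 3.02e-05). The RNA values in NPC rest on 31 counts in all against 353 in ESC. FGF4 thus passed the RNA filter only through ESC. Ribosome-bound FGF4 was at 10.4, 21.1 and 12.8 CPM in ESC and at 0.305, 0.285 and 0 in NPC. These NPC values rest on 2 counts against 129, a ratio of 79.7 with an interval of 21.6 to 664.8. The fitted change was -6.06 ± 0.65, and -5.72 ± 0.67 without ESC replicate 2, the high library. Of 18 FGF ligands, 9 were tested in RNA, of which 5 fell and 3 rose, beside 26.2% and 26.4% of all genes. FGF4 and its neighbour FGF19 (-2.42 ± 0.13) fell furthest. FGF8 (2.60 ± 0.26) and FGF17 (2.61 ± 0.24), known from brain patterning, rose most. In ribosome-bound RNA 4 of 6 ligands fell and 1 rose, beside 30.3% and 31.6% of all genes. FGF17 was among those that fell (-1.73 ± 0.23). Of 4 FGF receptors, FGFR3 rose (2.41 ± 0.22) and FGFR4 fell (-1.30 ± 0.28) in RNA.

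A separate list of primed-state markers changed in both directions. Of 11 tested in RNA, 7 fell and 2 rose, against 26.2% and 26.4% of all genes, with a median of -0.97 against 0.03. In ribosome-bound RNA 8 of 12 fell and 1 rose, against 30.3% and 31.6% of all genes. CYTL1, with 2 ribosome-bound counts in NPC, passed that filter only through ESC. In RNA, THY1 (-3.25 ± 0.13) and NLGN4X (-2.33 ± 0.11) fell furthest, while SOX11 (1.27 ± 0.08) and ZIC2 (0.59 ± 0.12), which are also neural factors, rose. No test compared this list with the 10 genes. Of 13 naive-state markers 6 passed the filter in RNA and 5 of these fell, against the same background in RNA, all from 26.2 CPM or less. DPPA3 and NLRP7, with 0 and 6 RNA counts in NPC, passed only through ESC. For these 2 hardly any call but lower was possible. The summed level of 6 neural crest markers rose in the same NPC libraries, from 36.8 to 47.7 CPM in the ESC RNA libraries to 268.6 to 282.5. TFAP2A, TFAP2B and PAX3, with 20, 9 and 11 RNA counts in ESC, passed the filter only through NPC. Of these markers 5 of 6 were called higher, against 26.4% of all genes, and FOXD3 was called lower (-1.26 ± 0.29 in RNA). Their part in the falls was not tested.

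For 7 of the 10 genes no difference in size was called between the falls in ribosome-bound RNA and in RNA. HHLA1 is counted among these but allows no value, with 0 ribosome-bound counts in NPC. Translational efficiency, here the change in ribosome-bound RNA minus the change in RNA on the log2 scale, was tested as an interaction over all 12 libraries. Of the 10 genes 2 were called lower and 1 higher, against backgrounds of 19.0% lower and 22.9% higher among 11866 genes, so these counts are near the background. ZSCAN10 was lower by -1.33 ± 0.38 (adjusted p = 0.0110), and its call held in all 20 alternatives run. DPPA4 was lower by -0.68 ± 0.23 (adjusted p = 0.0251), a call lost in 6 of 20 alternatives. TERT was higher by 1.24 ± 0.41 (adjusted p = 0.0236), lost when any of 4 single libraries was left out, with adjusted p up to 0.0944.

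Among the 7 genes that did not pass, ZFP42 had -0.86 ± 0.37 (adjusted p = 0.0703). It passed in 5 of 20 alternatives. Among these it was -0.93 ± 0.39 with DESeq2 (adjusted p = 0.0365) and -1.11 ± 0.27 without ribosome-bound ESC replicate 2, where ZFP42 was low (adjusted p = 0.00449). Without both divergent ESC libraries it was -1.17 ± 0.20 (adjusted p = 4.73e-06). ESRG had 0.62 ± 0.29 (adjusted p = 0.0952) and passed in 3 alternatives, without that same library among them (0.69 ± 0.26, adjusted p = 0.0418). FGF4 had -2.29 ± 1.06 (adjusted p = 0.0938) and passed only without RNA NPC replicate 2 (-2.68, adjusted p = 0.0394). L1TD1 (0.65 ± 0.40), UTF1 (-0.86 ± 0.75) and DPPA2 (-0.44 ± 0.55) did not pass either. For L1TD1 and UTF1 the values without both divergent ESC libraries were smaller and had smaller errors, 0.05 ± 0.15 and -0.32 ± 0.32. HHLA1, with 0 ribosome-bound counts in NPC, allows no value here.

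Within each cell state, the ribosome-bound level relative to the RNA level differed widely between the genes. The ratio is relative, since each library is scaled to its own total, and the median over all 11866 genes was -0.14 in ESC. In ESC 4 genes were above their RNA level and 3 below, against backgrounds of 30.6% higher and 37.5% lower. UTF1 was highest, at 4.65 ± 0.46 on the log2 scale (adjusted p = 2.07e-07), with 88 of 11866 genes above it, and 4.18 ± 0.19 without RNA ESC replicate 3. FGF4 followed at 1.67 ± 0.33 (adjusted p = 2.66e-04), and 1.31 ± 0.32 without ribosome-bound ESC replicate 2. L1TD1 (0.78 ± 0.28, adjusted p = 0.0217) and ZSCAN10 (0.60 ± 0.25, adjusted p = 0.0441) also passed. The ZSCAN10 call was lost in 9 of 20 alternatives and that of L1TD1 in 4. The ZSCAN10 value was 0.32 ± 0.19 (adjusted p = 0.142) without RNA ESC replicate 3, 0.81 ± 0.24 (adjusted p = 0.00845) without ribosome-bound ESC replicate 2 and 0.52 ± 0.10 (adjusted p = 3.99e-05) without both. That of L1TD1 was lowest without ribosome-bound ESC replicate 1, at 0.51 ± 0.29 (adjusted p = 0.133). It was 1.06 ± 0.29 without RNA ESC replicate 3, 1.12 ± 0.19 without ribosome-bound ESC replicate 2 and 1.40 ± 0.11 without both.

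Both HERV-H transcripts lay at the low end. ESRG was at -2.66 ± 0.18 (adjusted p = 2.74e-09) and HHLA1 at -3.21 ± 0.22 (adjusted p = 1.87e-08) in ESC, and DPPA4 at -0.96 ± 0.16 (adjusted p = 5.60e-05). NANOG (-3.90 ± 0.18) and POU5F1 (-3.38 ± 0.24) were also low, so a low ratio was not limited to noncoding RNA. Nor was it shared by all HERV-H transcripts: LINC00678, classed as noncoding by its name, had 122 CPM in RNA and 139 in ribosome-bound RNA of ESC (0.39 ± 0.16, adjusted p = 0.0353), and SCGB3A2 was at 0.61 ± 0.20. LINC01108, by contrast, had 87.7 CPM in RNA and 1.64 in ribosome-bound RNA and fell below the filter there.

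In NPC 3 of the 10 genes were above their RNA level and 4 below, against backgrounds of 30.8% higher and 33.3% lower. UTF1 again stood at the top, at 3.79 ± 0.62, where 119 of 11866 genes were above it. L1TD1 was at 1.44 ± 0.29 and TERT at 0.98 ± 0.29, the latter lost without ribosome-bound NPC replicate 3 (0.70, adjusted p = 0.0758). ESRG (-2.05 ± 0.22), DPPA4 (-1.65 ± 0.17), ZFP42 (-1.08 ± 0.27) and ZSCAN10 (-0.73 ± 0.29, adjusted p = 0.0345) were below. The last was lost in 8 of 20 alternatives. HHLA1, with 0 ribosome-bound counts in NPC, allows no ratio there.

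**Figure D4:**
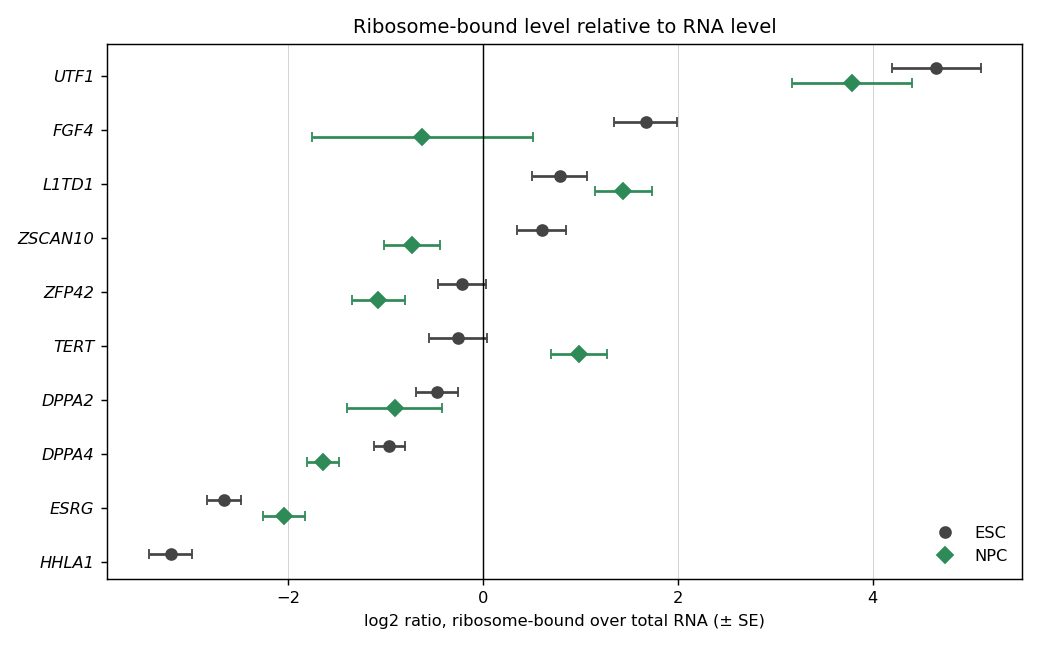
Log2 ratio of ribosome-bound to total RNA (± SE, from the fit over 12 libraries) in ESC (circles) and NPC (diamonds); HHLA1 in NPC is not drawn because it had 0 ribosome-bound counts. UTF1 lies near 4 in both states, ESRG below -2 in both, and ZSCAN10 moves from 0.60 to -0.73.

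The divergent ESC libraries touched the genes unequally. RNA replicate 3 was the lowest ESC library for 5 genes and the highest for 5. Against the mean of the other replicates on the log2 scale, it was lower by -2.48 for UTF1, -1.11 for ZSCAN10 and -0.79 for TERT, and higher by 0.69 for L1TD1. Ribosome-bound replicate 2 was the lowest for 7 genes and the highest for 3, at -1.47 for L1TD1, -1.11 for ZFP42 and -0.82 for ZSCAN10 but 0.84 for FGF4. ESRG moved by no more than 0.18 in any ESC library.

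**Figure D5:**
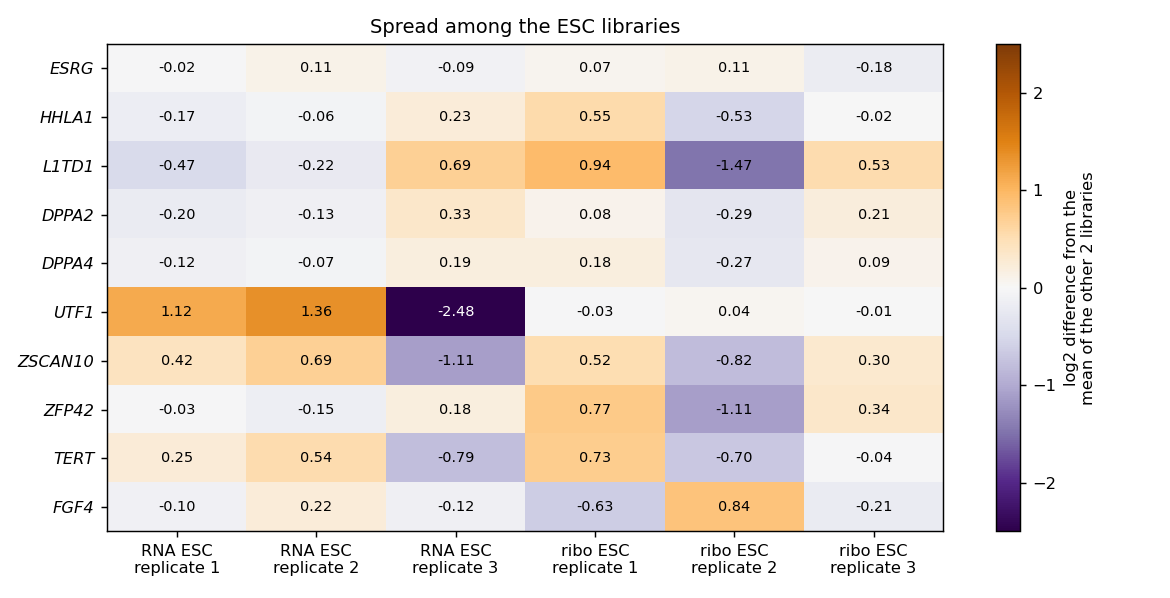
Log2 difference of each ESC library from the mean of the other 2 libraries of its group, by gene (rows) and library (columns), from log2(CPM + 0.5). RNA replicate 3 is 2.48 lower for UTF1, ribosome-bound replicate 2 is 1.47 lower for L1TD1, and ESRG stays within 0.18 throughout.

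Genes with the most similar pattern were found by the root mean square (RMS) difference of centred log2(CPM + 0.5) over the 12 libraries, with 3 genes listed for each. As a description, DPPA4 was closest to TRAF3IP2 (0.228) and VRTN (0.267), ZFP42 to IDH1 (0.246) and ACSS2, TERT to STX10 (0.233) and FMNL1, and ZSCAN10 to TENT5B (0.296) and ETV4. HHLA1 was closest to TDGF1 (0.595), the Nodal co-receptor, and NANOG (0.605), and ESRG to FAM83F (0.444), LGI2 and VASH2. FGF4 was closest to NPFFR2, SLCO4C1 and LEFTY1, L1TD1 to ESYT3, MAP7 and SP110, and DPPA2 to CBR3, FERMT1 and ADGRG2. UTF1 was closest to GPR50 (0.589), MIXL1 (0.879) and HIST1H3J (0.939). Among the 10 genes, DPPA4 and ZFP42 were most alike (0.417), then ZSCAN10 and ZFP42 (0.531), and HHLA1 and UTF1 least alike (3.29).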

How the data were processed

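The data are counts per gene, whole numbers with no normalization, as deposited by the authors in 1 table with a column for each of 12 libraries. Tools listed by the submitters' processing notes are featureCounts 1.6.4, STAR 2.7.1a, Bowtie 1.2 and cutadapt 1.18, with builds hg38 and GRCh38. Annotation, strand setting and treatment of multi-mapping reads: not given in the sources used here. Groups came from the labels. NPC was compared with ESC within each assay with edgeR 4.0.16 (R 4.3.3) by its quasi-likelihood F test after filterByExpr and TMM scaling, with Benjamini-Hochberg adjustment and a threshold of 0.05, and assay by state over all 12 libraries on genes passing both filters. Standard errors are the log2 change divided by the square root of F. The tests were checked on simulated counts. No 2 replicates agreed within sampling noise. Same-numbered RNA libraries of ESC and NPC deviated together over 10049 genes (r = 0.459, 0.311 and 0.645), but ribosome-bound ones did not (-0.233, -0.308 and -0.0184). Alternatives were DESeq2 1.42.0, limma-voom 3.58.1, other scalings and filters, a replicate block and leaving out each library. Intervals and floors cover counting error only.

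The 10 genes and the other lists were chosen with earlier results of these data known, so their directions are not independent evidence. Named genes were the 10, the 2 largest rises and falls of each list past the threshold, marker genes for the labels and the 3 most similar genes. LINC01108, LINC00678, LINC00545, ABHD12B, SCGB3A2, ACD, FGF17 in ribosome-bound RNA, TERC, YY1, DPPA3, DPPA5, HHLA2, HHLA3 and neighbouring genes were named after their values were seen where that rule did not name them. Protein sequences were not used here. The promoters are from RefSeq.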

Additional observations from a re-analysis of the deposited data

Results flagged for a closer look

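The change from ESC to NPC differed between ribosome-bound and total RNA, by the interaction test in edgeR, for 3 of the 10 genes. Over all 11866 genes tested, 19.0% were called lower and 22.9% higher, so this count is not above the background. For ZSCAN10 the difference was -1.33 on the log2 scale: the fall was larger in ribosome-bound RNA (-3.83) than in RNA (-2.56). For DPPA4 the difference was -0.68, with falls of -3.01 and -2.38. For TERT it was 1.24, with 0.35 in ribosome-bound RNA and -0.95 in RNA. ZSCAN10 and TERT each had their lowest ESC value in the divergent library of each assay. Without both of those libraries the differences were -1.25 ± 0.18 for ZSCAN10, -0.80 ± 0.15 for DPPA4 and 1.34 ± 0.29 for TERT.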

How the results depend on the processing

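Of 860 values of the 10 genes recomputed under alternatives, 817 kept their direction and side of the threshold, 33 lost the call, 9 gained one and 1 reversed: HHLA1's translational efficiency, 2.94 (adjusted p = 7.03e-04) with limma-voom, a gene with 0 ribosome-bound counts in NPC. Genes of the 10 called lower in translational efficiency numbered 1 with no filter on low counts and 1 to 3 when single libraries were left out. Those called higher numbered 2 with limma-voom, 2 without both divergent ESC libraries (an alternative chosen after seeing the data) and 0 to 2 when single libraries were left out. Genes above their RNA level in ESC numbered 2 to 4 when single libraries were left out. Over all genes, 3603 were lower in translational efficiency without both divergent libraries (2254 with all), and with no filter 6865 and 5998 were below their RNA level in ESC and NPC (4454 and 3950 with it), where more genes were tested. Other causes were not tested. DESeq2 size factors moved the median ratio in ESC from -0.14 to 0.01.

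With the replicate block, 10 genes were lower in RNA, 9 in ribosome-bound RNA and 2 in translational efficiency, and no call among the 10 changed. Same-numbered libraries deviated together in RNA only, and even there replicate 2 of ESC correlated best with number 1 of NPC.

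Depth limits the ribosome-bound values of HHLA1, FGF4 and DPPA2 in NPC most, which rest on 0, 2 and 6 counts.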

Other observations

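Genes next to the 10 on the chromosome, in the RefSeq annotation, were examined after the values of the 10 had been seen. Of 19 such neighbours in the count table (FGF19 included), 12 were tested in RNA, of which 7 were lower and 1 higher in NPC, against backgrounds of 26.2% and 26.4%. In ribosome-bound RNA 4 of 10 were lower and 3 higher, against 30.3% and 31.6%. VENTX, a homeobox gene 6297 bases from UTF1, fell from 72.9 to 10.1 CPM in RNA (-2.93 ± 0.14) and changed by -3.92 ± 0.43 in ribosome-bound RNA, and KNDC1, on the other side of UTF1, fell by 2.12 ± 0.33 in RNA. TRIML2, 86026 bases from ZFP42, fell from 92.7 to 2.15 CPM (-5.49 ± 0.13), further than ZFP42 itself. KCNQ3, a potassium channel gene 9704 bases from HHLA1, fell from 6.73 to 0.202 CPM (-5.09 ± 0.23) and passed the filter only through ESC. CLPTM1L, 22684 bases from TERT, changed by -0.79 ± 0.11 in RNA and by 1.13 ± 0.25 in ribosome-bound RNA. SELENOK, PATJ, KANK4 and ZNF205 did not pass the test in RNA, and IL32, 19360 bases from ZSCAN10, rose by 2.08 ± 0.32.

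FGF17 went in opposite directions in the assays, from 0.731 to 4.78 CPM in RNA and from 40.5 to 11.9 in ribosome-bound RNA, a translational efficiency change of -4.39 ± 0.34 (adjusted p = 9.96e-07). FGFR1 and FGFR2 differed too: RNA changed by -0.10 ± 0.11 and 0.21 ± 0.11 (neither passed), ribosome-bound RNA by 1.12 ± 0.20 and 2.04 ± 0.19. ABHD12B, among the HERV-H transcripts, had a translational efficiency change of 2.39 ± 0.66 (adjusted p = 0.00903), on 16 ribosome-bound counts in NPC. Mesoderm and endoderm markers also had high ESC ratios. All 5 tested were above their RNA level, against 30.6% of all genes, with a median of 4.39 against -0.14. This direction was partly set by the filter. The ribosome-bound libraries are shallower, so a gene low in RNA, such as GATA6 at 0.337 CPM, passed in both assays only with a higher ribosome-bound CPM (9.13). MIXL1 was among the genes nearest to UTF1 in pattern.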
